A study of Mus musculus with 24 samples.

Results

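Kidney gene expression was compared between female and male BPN/3J mice, the normotensive control strain of the Schlager model of hypertension. Of the 24 arrays in the series, 12 carried the strain label BPN/3J, 6 from females and 6 from males, with 1 array per mouse. All mice were 12 weeks old, untreated as far as the labels state, and killed by cervical dislocation; the other 12 arrays came from female and male BPH/2J mice, the hypertensive strain, of the same age. Whole kidneys were measured, so a transcript carried by fewer cells and a transcript at a lower level per cell cannot be told apart. Genes were taken as members when they lay on an autosome and had a probe set annotated with exactly 1 gene symbol. This left 18025 autosomal genes of 28853 probe sets. BPN/3J is a single inbred strain selected for normal blood pressure, and blood pressure was not recorded in the mice used for arrays. The labels name no castrated or hormone-treated mice, so sex chromosomes and sex hormones varied together. Replicates were separate mice.

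The mouse kidney is among the most sexually dimorphic organs outside the reproductive tract. Androgens act on proximal tubule cells, above all in the straight segment (S3), where they raise enzymes and transporters of drug, steroid and amino acid handling. Oestrogens, prolactin and the sex-specific rhythm of growth hormone, which signals through STAT5, also differ between the sexes. The proximal tubule reabsorbs filtered solutes and secretes organic anions and cations, whereas the later segments adjust salt, water, calcium and acid excretion.

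The sex labels were checked on genes that were not members. Xist, transcribed from the inactive X chromosome, lay between 12.27 and 12.48 in the BPN/3J females and between 4.96 and 5.75 in the males, in log2 units of robust multiarray average (RMA) expression, the scale of every level below. The Y-linked genes Eif2s3y, Kdm5d and Uty were at least 3.47 higher in males on the log2 scale. None of the 12 arrays went against its label. Within a group the arrays correlated with each other at r of 0.981 to 0.997 in females and 0.993 to 0.997 in males, across all probe sets.

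A number of arrays held transcripts of organs that lie beside the kidney. The mean of 25 hepatocyte markers was between 6.51 and 11.78 in females and between 6.61 and 8.79 in males, and female arrays 2 and 5 stood apart at 11.49 and 11.78. None of the 25 passed the test with all arrays, at a median difference of 0.87. Without arrays 2 and 5 the median was -0.924, and 1 was higher in females and 3 in males. The mean of 9 adrenal cortex markers ranged from 5.69 to 10.18 in females and from 5.72 to 8.89 in males, and again none of the 9 was called. It was highest in female arrays 1, 2 and 4, followed by male arrays 4 and 6 (8.89 and 8.62) and female array 5 (8.55). Albumin (Alb) was measured at 8.45 or more in every array. Whether the lowest of these values came from liver tissue was not tested. Values without the 2 liver-rich arrays are given below beside some of the results that moved with them. The labels name no hybridisation or scan batch, so a batch that coincided with sex cannot be told apart from it.

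Females and males differed by a small amount in many genes and by a very large amount in a short list. By limma with Benjamini-Hochberg adjustment over all probe sets, 2961 autosomal genes were higher in females (16.4% of those tested) and 3022 higher in males (16.8%), at an adjusted p under 0.05. Together these were 33.2% of the genes. The median size of these differences was 1.21-fold. A difference of over 2-fold was reached by 106 genes higher in females (0.588%) and 154 higher in males (0.854%), of which 25 and 41 exceeded 4-fold. Without female arrays 2 and 5, 104 of the 106 and 154 of the 154 were still called. The values of the 6 females and the 6 males did not overlap for 3826 genes (21.2%). The median difference over all autosomal genes was -0.02, and it moved with the scaling of the arrays. With each array shifted to a common median, the median over all probe sets went from -0.02 to -0.06 and the share of calls that were higher in females from 49.3% to 36.1%, so small differences of either sign depend on the scaling.

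**Figure D1:**
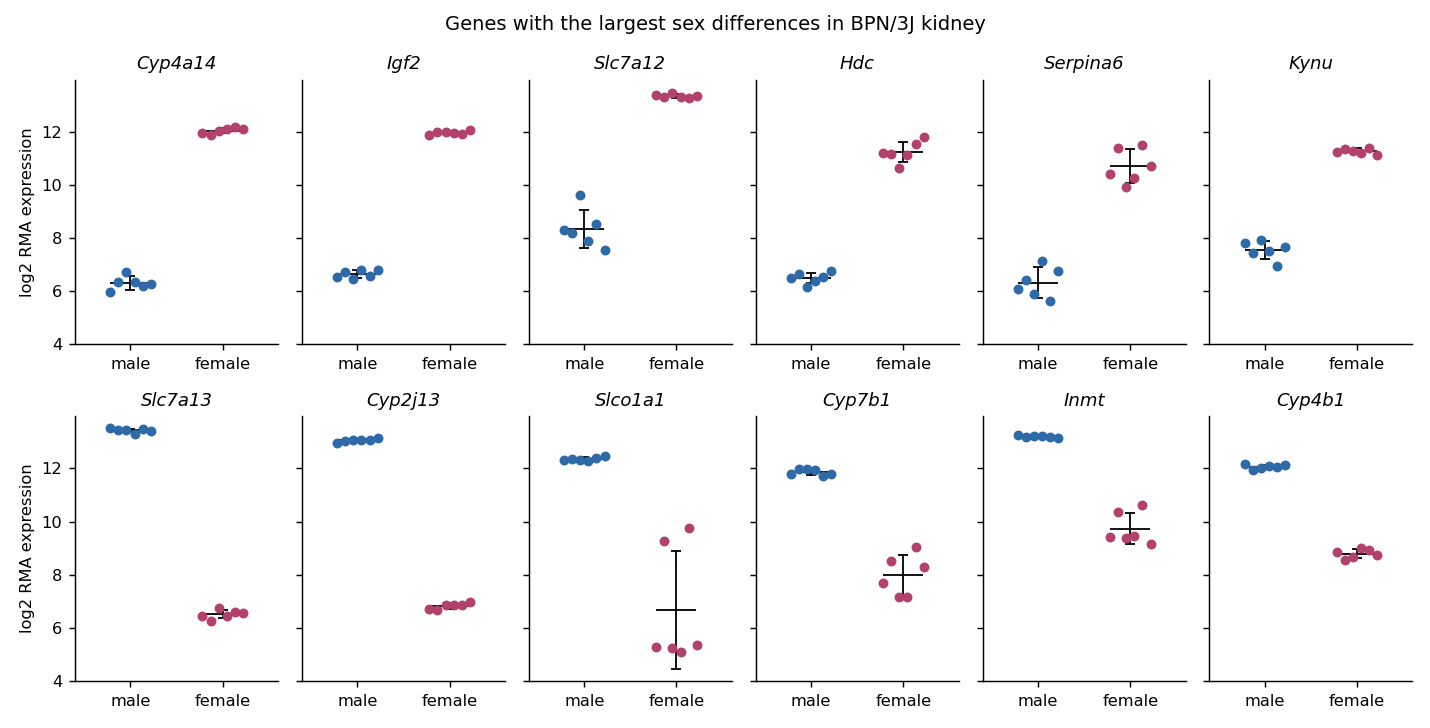
Log2 RMA expression of 12 genes in each of the 6 male (blue) and 6 female (magenta) BPN/3J arrays, with the group mean and SD in black; arrays are drawn in label order. The upper row holds genes higher in females and the lower row genes higher in males. Slco1a1 in females splits into 4 arrays near 5.3 and arrays 2 and 5 above 9.

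The largest differences towards females were led by Cyp4a14, a fatty acid omega-hydroxylase of the Cyp4 family. It lay between 11.89 and 12.17 in females (median 12.06) and between 5.98 and 6.74 in males (median 6.30). The groups stood far apart, by 5.74 ± 0.10 (log2 difference, SE), or 53.3-fold (limma, adjusted p = 3.57e-13). Igf2, the fetal growth factor insulin-like growth factor 2, ranged from 11.88 to 12.07 in females (median 11.96) and from 6.45 to 6.81 in males (median 6.64). No male array came near the female range, and the fold was 39.9 (limma, adjusted p = 8.72e-15). Slc7a12, an amino acid carrier of the SLC7 family, was tight in females at 13.27 to 13.45 (median 13.33) and spread in males from 7.56 to 9.61 (median 8.25). Even the highest male array stayed below every female, with a difference of 5.0 ± 0.26.

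Hdc, histidine decarboxylase, which makes histamine, lay between 10.65 and 11.79 in females (median 11.18) and between 6.17 and 6.75 in males (median 6.51). All 6 females were above all 6 males, by 26.9-fold (limma, adjusted p = 2.20e-10). Serpina6, the corticosteroid-binding globulin that carries glucocorticoids in blood, ranged from 9.91 to 11.51 in females (median 10.55) and from 5.62 to 7.15 in males (median 6.25). It is made mostly by the liver. The difference was 4.38 with all arrays and 4.01 without female arrays 2 and 5. Kynu, kynureninase of tryptophan breakdown, was between 11.12 and 11.40 in females (median 11.26) and between 6.93 and 7.92 in males (median 7.59), and Abcc3, an exporter of conjugated organic anions, between 10.58 and 11.13 in females (median 10.68) and between 7.03 and 7.39 in males (median 7.13). Both were over 12-fold higher in females, at 13.2-fold and 12.3-fold. The remaining genes of the 15 largest were Slc17a2, Cpn1, Bhmt, Cbr1, Rdh19, Gbp3, Pjvk and Atp13a4, with differences from 2.47 to 3.69. Of these, Bhmt, the betaine-dependent methyltransferase of homocysteine, went from 2.75 to 2.25 without the liver-rich arrays, and Cpn1 from 2.81 to 2.38.

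The largest differences towards males were led by Slc7a13, an amino acid carrier of the S3 segment and a relative of Slc7a12. It lay between 13.31 and 13.50 in males (median 13.45) and between 6.27 and 6.75 in females (median 6.51). The difference of -6.91 ± 0.07, or 121-fold, was the largest among all called genes (limma, adjusted p = 1.05e-15). Cyp2j13, a cytochrome P450 of the Cyp2j family, ranged from 12.95 to 13.14 in males (median 13.07) and from 6.67 to 6.97 in females (median 6.85). The groups were separated by 75.8-fold, with a narrow spread within either sex. Slc7a13 and Slc7a12 thus differed in opposite directions.

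Slco1a1, an organic anion transporter of the proximal tubule brush border, lay between 12.28 and 12.45 in males (median 12.33). In females it was between 5.10 and 5.36 in 4 arrays and at 9.25 and 9.76 in arrays 2 and 5, the arrays with the highest hepatocyte mean. The difference was -5.69 ± 0.80 with all arrays (limma, adjusted p = 0.000127) and -7.11 without those 2. Cyp7b1, the oxysterol and steroid 7-alpha-hydroxylase, was between 11.72 and 11.99 in males (median 11.87) and between 7.15 and 9.04 in females (median 7.98), 14.8-fold apart. Inmt, an amine N-methyltransferase, ranged from 13.13 to 13.25 in males (median 13.21) and from 9.16 to 10.61 in females (median 9.44). Its difference of -3.47 became -3.85 without arrays 2 and 5. The other large male differences were those of Tc2n (-3.43), Cyp4b1 (-3.27), Cyp4a12a (-3.23), the complement gene C4a (-3.20), Slco4c1 (-3.15), Cyp4a12b (-3.06), Cyp2d9 (-3.01), Ugt8a (-2.95), Ugt2b38 (-2.85) and Ugt2b37 (-2.84). Without arrays 2 and 5, C4a went to -3.63 and Ugt2b37 to -3.33. Cyp4a12a and Cyp4a12b, like members of the Ugt2b and C4 families, are near-identical copies whose probes can share signal, so the share of each copy is uncertain.

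The sequences just upstream of 3 of these genes are shown because sex-specific growth hormone rhythms act, as background, through STAT5. Each runs 5′ to 3′ over the 250 bases before the annotated start site, from RefSeq promoters on GRCm38.p6, and capitals mark a match to the STAT5 motif TTCNNNGAA on either strand. The windows are those of Slco1a1 (chr6:141946963-141947212, minus strand), Ugt2b38 (chr5:87424204-87424453, minus) and Slc17a2 (chr13:23806743-23806992, plus).
Slco1a1: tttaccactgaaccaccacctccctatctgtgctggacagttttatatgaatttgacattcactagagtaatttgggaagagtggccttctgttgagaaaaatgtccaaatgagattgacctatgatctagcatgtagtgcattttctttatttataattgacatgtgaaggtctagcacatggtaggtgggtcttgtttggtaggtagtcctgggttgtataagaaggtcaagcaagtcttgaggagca
Ugt2b38: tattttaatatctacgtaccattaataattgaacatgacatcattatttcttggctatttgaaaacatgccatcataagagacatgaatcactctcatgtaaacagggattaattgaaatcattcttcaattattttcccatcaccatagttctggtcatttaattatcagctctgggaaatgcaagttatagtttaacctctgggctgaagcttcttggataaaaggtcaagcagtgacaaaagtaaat
Slc17a2: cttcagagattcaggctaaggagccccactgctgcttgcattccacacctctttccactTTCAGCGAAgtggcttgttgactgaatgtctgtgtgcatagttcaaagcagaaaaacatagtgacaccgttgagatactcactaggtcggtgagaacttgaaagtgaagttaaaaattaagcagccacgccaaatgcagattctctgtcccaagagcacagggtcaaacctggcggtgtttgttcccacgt
The male-high genes Slco1a1 and Ugt2b38 did not hold the motif in this window, and the female-high Slc17a2 held it 1 time. The window of Hdc, also female-high, was scanned as well and did not hold it, and its sequence is not printed. TTCNNNGAA was present in 7.94% of the 126 promoters of 80 matched genes over 2-fold higher in females and in 4.58% of the 153 promoters of 115 matched genes higher in males. It was present in 6.64% of the 17392 promoters of all measured autosomal genes and in 7.02% of all 32851 promoters. These are counts of letters in a short window and say nothing about binding.

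Transporters as a class leaned towards females. Of 254 transporter genes in 7 lists, 99 were higher in females (39%, against 16.4% of all autosomal genes) and 47 higher in males (18.5%, against 16.8%). Their median difference was 0.125, and most of these differences were small, with 13 genes over 2-fold. Among the 7 lists, the share higher in females was largest in the lists of salt and acid-base transport along the tubule and of water, urea, calcium and magnesium handling. Of 41 genes of salt and acid-base transport, 22 were higher in females and 7 in males, with a median of 0.19, and of 27 genes of water, urea, calcium and magnesium handling 18 were higher in females and 3 in males (1 without female arrays 2 and 5), with a median of 0.25. Among them Slc8a1, the sodium-calcium exchanger, differed by 0.55, Calb1, the calcium-binding calbindin, by 0.42, Rhbg, an ammonia channel, by 0.44 and the potassium channel Kcnk1 by 0.72. Those higher in males included the potassium channels Kcnma1 (-0.88) and Kcnk5 (-0.76) and the membrane carbonic anhydrase Car4 (-0.81). The call of Aqp3, a collecting duct water channel (-0.16, adjusted p = 0.0498), did not hold without female arrays 2 and 5.

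Organic ion carriers of the proximal tubule divided in both directions. Of 23 Slc22 and Slc47 genes, 6 were higher in females (26.1%, against 16.4% of all genes) and 10 in males (43.5%, against 16.8%). Slc22a6, the basolateral organic anion transporter that takes up drugs and urate, lay between 13.02 and 13.20 in males (median 13.09) and between 11.99 and 12.26 in females (median 12.09). The groups did not overlap, with a difference of -0.98 ± 0.05 (limma, adjusted p = 1.65e-08). Slc22a12, the urate exchanger of the brush border, differed by -0.82 and Slc22a30 by -2.76 (-3.10 without female arrays 2 and 5). Slc22a13, another urate and organic anion carrier, lay between 11.98 and 12.20 in females (median 12.08) and between 10.88 and 11.15 in males (median 10.96), 2.12-fold apart. Slc22a27 differed by 2.12 on the log2 scale (1.80 without female arrays 2 and 5) and Slc22a19 by 0.67. Of 15 Slco genes, 3 were higher in females (5 with the liver and adrenal means as covariates) and 4 in males, the males' led by Slco1a1, Slco4c1 and Slco3a1 (-1.46), and the females' by the prostaglandin carrier Slco2a1 (0.74). Slco1a6 was called at 0.16 and lost its call without the liver-rich arrays.

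Of 48 ABC transporters, 15 were higher in females and 7 in males (4 without the liver-rich arrays and 12 with arrays shifted to a common median). Beside Abcc3, the drug efflux pumps Abcb1a and Abcb1b were higher in females. Abcb1b lay between 9.22 and 10.02 in females (median 9.65) and between 6.62 and 8.66 in males (median 7.05), which left a gap between the groups and a difference of 2.18 ± 0.35. Its highest male values, 8.66 and 8.49, were in arrays 4 and 6, the males with the highest adrenal cortex means (8.89 and 8.62), and with the hepatocyte and adrenal cortex covariates the difference was 1.80. Of 52 amino acid and peptide carriers, 16 were higher in females and 8 in males. Apart from Slc7a12 and Slc7a13 these were changes under 2-fold, such as the peptide carrier Slc15a2 (0.77) and the amino acid exchanger Slc7a8 (0.64) in females and the neutral amino acid carrier Slc1a4 (-0.79) and the glycine carrier Slc6a9 (-0.77) in males. Of 48 carriers of sugars, phosphate, vitamins and monocarboxylates, 19 were higher in females and 8 in males. The shares higher in males of the ABC, amino acid and sugar lists were 14.6%, 15.4% and 16.7%, below the 16.8% of all genes. Those higher in females were 31.2%, 30.8% and 39.6%, against 16.4% of all genes. Slc5a6, which carries biotin and pantothenate, was higher in females by 1.25 and Slc5a8, which reabsorbs lactate and other monocarboxylates, was higher in males by 2.17-fold.

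**Figure D2:**
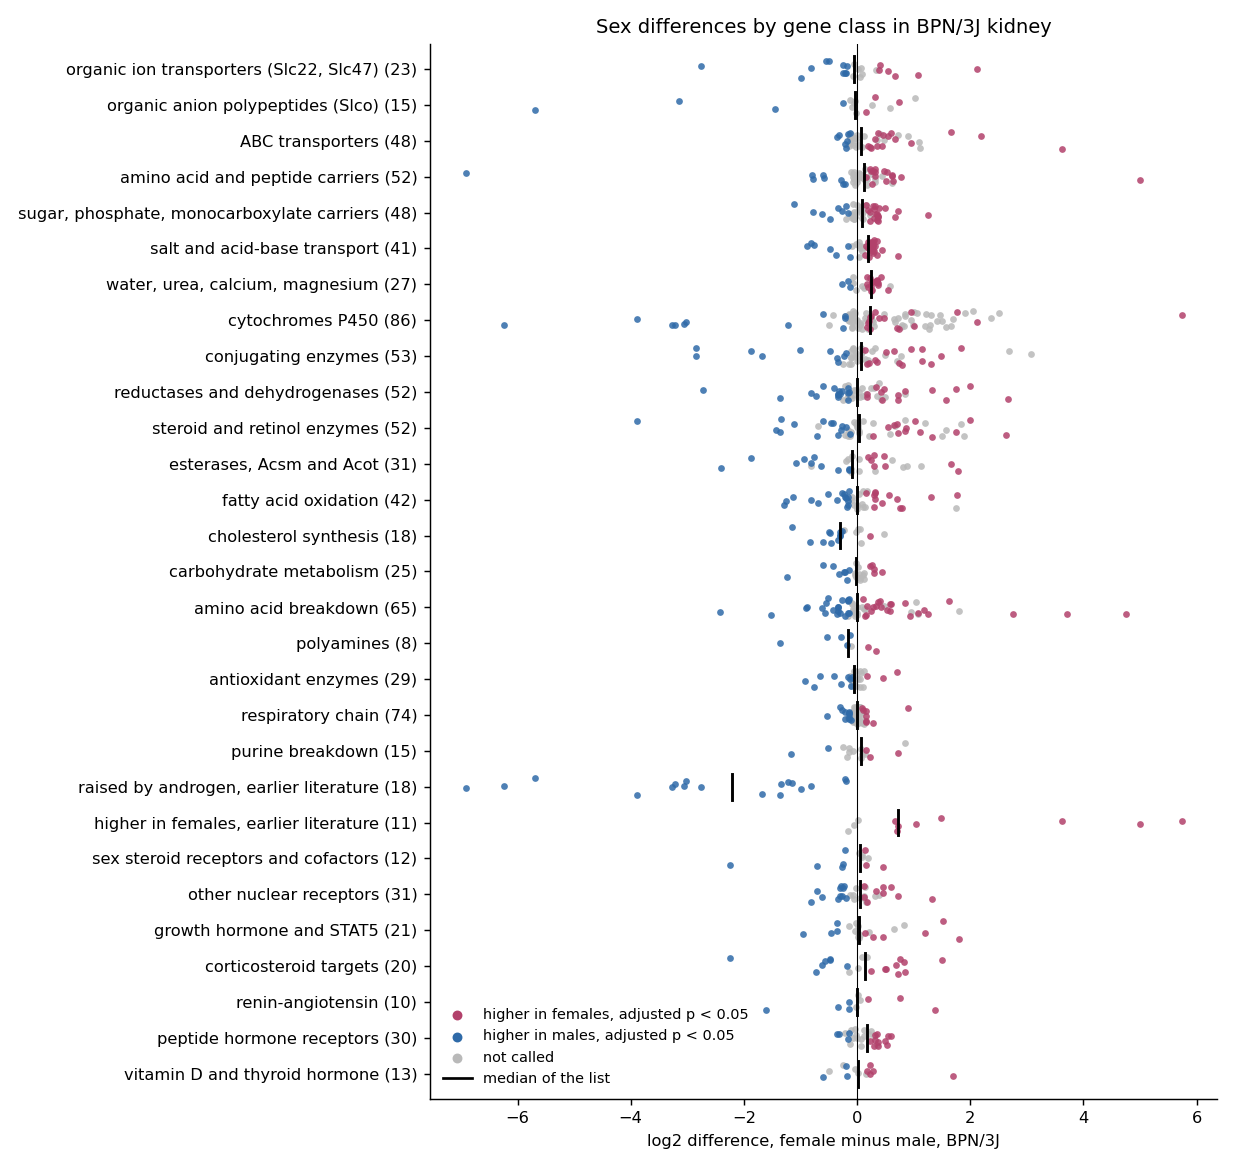
Log2 difference, female minus male, of every member of 29 gene lists in BPN/3J kidney, with the number of members after each list's name. Magenta points were higher in females and blue points higher in males at an adjusted p under 0.05, grey points were not called, and the black bar is the median of the list. The lists of salt and of water, urea, calcium and magnesium transport sit to the right of 0, cholesterol synthesis and the known androgen-raised genes to the left, and most other metabolic lists on both sides.

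Metabolic genes differed in both directions. Of 534 in 13 lists, 118 were higher in females (22.1%, against 16.4% of all autosomal genes) and 140 in males (26.2%, against 16.8%). Over 2-fold were 10.7% in either direction, against 0.588% higher in females and 0.854% higher in males of all genes. The 86 cytochromes P450 held 16 genes higher in females (18.6%) and 11 higher in males (12.8%), shares near or below those of all genes. Their median difference was 0.221 with all arrays and -0.069 without female arrays 2 and 5, so the sign of that median rested on those arrays. With the hepatocyte and adrenal cortex means as covariates, 32 P450 genes were higher in females. The largest P450 differences kept their size, and among Cyp4a14, Cyp2j13, Cyp7b1, Cyp4b1, Cyp2d9 and both Cyp4a12 copies the one that moved most was Cyp7b1, from -3.89 to -4.29. Cyp4f14 lay between 7.84 and 9.96 in females (median 8.20) and between 6.28 and 6.66 in males (median 6.57), and its difference went from 2.13 to 1.54. Cyp2c23, an arachidonic acid epoxygenase, went from 1.77 to 1.29. Both stayed called.

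Conjugating and reducing enzymes went both ways. Of 53 conjugating enzymes, 15 were higher in females (28.3%, against 16.4% of all genes) and 10 in males (18.9%, against 16.8%). Females had more of Ugt2b34 (1.84), the glutathione transferase Gsta4 (1.48) and Mgst1 (1.31). Males had more of Ugt2b37, Ugt2b38 and Nat8, an N-acetyltransferase of cysteine conjugates (-1.87). Of 52 aldo-keto reductases, aldehyde and alcohol dehydrogenases and related enzymes, 14 were higher in females and 16 in males. Cbr1, a carbonyl reductase of prostaglandins and drugs, lay between 11.46 and 11.64 in females (median 11.50) and between 8.65 and 9.09 in males (median 8.80). The groups were 6.35-fold apart (limma, adjusted p = 3.45e-11). Fmo5, a flavin monooxygenase, was between 11.59 and 11.98 in males (median 11.64) and at a median of 8.60 in females, with no overlap and a difference of -2.72 that became -3.21 without arrays 2 and 5. Of 31 esterases, medium-chain acyl-CoA synthetases and thioesterases, 8 were higher in females and 10 in males, the carboxylesterase Ces1f (-2.41) and Ces2b (-1.87) in males and the acyl-CoA thioesterases Acot3 (1.78) and Acot7 (1.65) in females. The medians of the conjugating and reducing lists, 0.071 and 0.007, also turned to -0.042 and -0.070 without the 2 arrays.

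Enzymes of steroid and retinol metabolism were divided nearly evenly, with 13 of 52 higher in females (25%) and 14 in males (26.9%). The shares of all genes were 16.4% and 16.8%. Akr1d1, the steroid 5-beta-reductase, lay between 10.11 and 10.88 in females (median 10.62) and between 8.42 and 8.62 in males (median 8.56), 4.01-fold apart. Hsd17b11, a short-chain dehydrogenase of steroids and lipid droplets, was between 13.24 and 13.34 in males (median 13.32) and between 11.79 and 11.93 in females (median 11.87), 2.71-fold apart. Neither pair of groups overlapped. Akr1c14 was higher in males by 2.56-fold, and Akr1c20 was higher in females, by 1.74 with all arrays and 0.99 without the liver-rich arrays.

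Lipid metabolism differed by pathway. Of 18 cholesterol synthesis genes, 11 were higher in males and 1, Cyp51 (0.22), was higher in females, with a median of -0.30 beside -0.02 for all genes. Idi1, isopentenyl-diphosphate isomerase, lay between 10.47 and 10.73 in males (median 10.52) and between 9.20 and 9.55 in females (median 9.45), a difference of -1.14 ± 0.07 (limma, adjusted p = 7.71e-08). Mvd and Mvk, the decarboxylase and the kinase of mevalonate, differed by -0.83 and -0.60. Without arrays 2 and 5, 13 of the 18 were higher in males. Among 42 fatty acid oxidation genes, 13 had the higher level in females and 16 in males. Males had more of Amacr (-1.29) and Acox3 (-1.25), enzymes of branched-chain and bile acid side-chain oxidation in the peroxisome, and of the fatty acid receptor Cd36 (-1.13). Females had more of Hacl1 (1.77), which cleaves 2-hydroxy fatty acids, Acox2 (1.31), the branched-chain acyl-CoA oxidase, and mitochondrial Acaa2 (0.79). A dimmer probe set of Acox3 gave -0.34, still called.

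Amino acid breakdown held 23 genes higher in females and 22 higher in males of 65. Beside Hdc, Kynu and Bhmt in females, males had more of Cndp1, a carnosine dipeptidase (-2.43), Kyat1, a kynurenine aminotransferase (-1.52), and Cbs, cystathionine beta-synthase (-0.91). Cndp1 lay between 11.03 and 11.24 in males (median 11.10) and between 8.57 and 8.94 in females (median 8.62), so no array overlapped. Of 8 polyamine genes, 5 were higher in males (3 without arrays 2 and 5). Odc1, ornithine decarboxylase, the rate-limiting enzyme and a classical androgen target in the mouse kidney, was between 12.99 and 13.31 in males (median 13.10) and between 11.66 and 11.89 in females (median 11.76), 2.57-fold apart. Srm, spermidine synthase, differed by -0.53, and the list's 2 female-high genes were Aoc1, diamine oxidase (0.34), and Azin2 (0.19). Of 29 antioxidant genes, 3 were higher in females (10.3%, below the 16.4% of all genes) and 9 in males (31%). Those higher in males included haem oxygenase Hmox1 (-0.76) and malic enzyme Me1 (-0.66).

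Differences in the respiratory chain were small. Of 74 respiratory chain genes, 8 were higher in females and 11 in males, shares of 10.8% and 14.9% that lie below the 16.4% and 16.8% of all genes, and none reached 2-fold. Without arrays 2 and 5 the counts were 5 and 6, and with arrays shifted to a common median 2 were higher in females. The largest was Cox8b (0.90), a subunit of muscle and brown fat, whose groups overlapped. Nnt gave 0.18 from its brighter probe set and -0.04, not called, from a dimmer one. Of 25 genes of glucose handling, 5 were higher in females (20%) and 8 in males (32%), both above the shares of all genes, led by Ldhd, the D-lactate dehydrogenase (-1.24). The gluconeogenic Pck1 (0.31) and Pcx (-0.42) differed in opposite directions. Of 15 purine genes, 3 were higher in females, led by Xdh, xanthine dehydrogenase, which makes urate (0.72), and 2 in males (4 with arrays shifted to a common median), led by Nt5e, which makes adenosine (-1.17). The purine shares were 20% and 13.3%, beside the 16.4% and 16.8% of all genes.

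Of 162 genes in 9 hormone-regulated lists, 53 were higher in females (32.7%, against 16.4% of all autosomal genes) and 53 higher in males (32.7%, against 16.8%), and 17.3% were over 2-fold, against 0.588% and 0.854% of all genes in the 2 directions. Of these genes, 29 come from lists of genes already known to differ by sex. Among the other 133, 45 were higher in females (33.8%) and 35 in males (26.3%), and 6.77% were over 2-fold. The list of 18 genes known from earlier literature to be raised by androgen in mouse kidney had all 18 higher in males, 14 of them over 2-fold, with a median of -2.22 beside -0.02 for all genes. That list was written from knowledge of sex differences and with earlier results of these data known, so its direction is a description. Its sizes varied widely. Slc7a13 differed by -6.91, Gusb, beta-glucuronidase, by -1.68 and Nudt19, a coenzyme A hydrolase, by -1.14. Kap, the kidney androgen-regulated protein, was between 13.45 and 13.63 in males (median 13.52) and between 13.31 and 13.37 in females (median 13.35), near the top of the measured range of 2.12 to 14.55, and differed by -0.19. Of 11 genes known to be higher in females, 8 were called higher in females, and Slc22a7 (0.03), Cyp2d12 (-0.16) and Cyp2a5 (-0.05) were not called.

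Of 12 sex steroid receptors and cofactors, 3 were higher in females (1 with arrays shifted to a common median) and 5 in males. Esr1, the oestrogen receptor alpha, lay between 8.41 and 8.74 in males (median 8.54) and between 7.49 and 8.28 in females (median 7.75). It was higher in males by 1.64-fold (limma, adjusted p = 0.00112), and by -0.91 on the log2 scale without arrays 2 and 5. Ghr, the growth hormone receptor, was between 13.14 and 13.20 in females (median 13.19) and between 13.15 and 13.26 in males (median 13.20). The groups overlapped, with a difference of -0.02 ± 0.03 (limma, adjusted p = 0.698). Prlr had no probe set with its symbol alone and was not analysed here. Among 31 other nuclear receptors, 9 were higher in females (29%, against 16.4% of all genes) and 11 in males (35.5%, against 16.8%). Nr1i2, the pregnane X receptor that senses drugs and bile acids, was 2.49-fold higher in females, and Nr1h4, the bile acid receptor, was 1.76-fold higher in males. Pparg, the receptor of fat cell differentiation, differed by -0.72 and Rara, a retinoic acid receptor, by -0.62.

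Of 21 genes of growth hormone, prolactin and STAT5 signalling, 6 were higher in females and 4 in males. The 3 largest were targets or binding proteins. Socs2, the STAT5-induced inhibitor of growth hormone signalling, lay between 11.19 and 11.65 in females (median 11.36) and between 9.82 and 10.69 in males (median 10.12), 2.30-fold apart. Igfbp1 and Igfals, which bind insulin-like growth factors, differed by 1.51 and 1.79, and Igf2r, the receptor that clears Igf2, by -0.45. Bcl6, a repressor of STAT5 targets, was called at -0.95 although its groups overlapped, and the call was lost without arrays 2 and 5 (limma, adjusted p = 0.0705). Stat5a and Stat5b were not called, at -0.14 and 0.01.

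Targets of corticosteroids divided without a common direction, 9 of 20 higher in females and 7 in males. Fkbp5, a chaperone raised by glucocorticoids and androgens, lay between 10.11 and 10.50 in males (median 10.34) and between 7.89 and 8.15 in females (median 8.09). The groups were 4.76-fold apart (limma, adjusted p = 1.98e-10). Cebpd, a transcription factor, and the metallothioneins Mt1 and Mt2 were higher in females by 1.49, 0.85 and 0.84. Of 10 renin-angiotensin genes, 3 were higher in females and 4 in males (2 after quantile normalisation). Mme, neprilysin, which degrades angiotensin and natriuretic peptides, was between 11.77 and 12.10 in females (median 12.00) and between 10.48 and 10.74 in males (median 10.60), 2.59-fold apart. Agt, angiotensinogen, was higher in females by 0.75 (0.61 without female arrays 2 and 5). Mas1, the receptor of angiotensin 1-7, was higher in males by 3.03-fold. Of 30 other peptide hormone receptors and ligands, 11 were higher in females, such as Lepr (0.60) and Ptgfr (0.55), and 4 in males, such as Pth1r, the parathyroid hormone receptor (-0.36). The 4 were 13.3% of that list, below the 16.8% of all genes. Of 13 vitamin D and thyroid hormone genes, 5 were higher in females and 3 in males. Dio1, the deiodinase that activates thyroid hormone, lay between 10.02 and 10.30 in females (median 10.16) and between 8.38 and 8.57 in males (median 8.45), 3.23-fold apart. Cyp27b1, which activates vitamin D, was higher in males by 1.52-fold, with overlapping groups.

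In some families, members that sit side by side on a chromosome differed in opposite directions. The families below were chosen after the values were seen, and the order of their genes was read from RefSeq. How often this occurs over all neighbouring families was not counted. In the Cyp4 cluster on chromosome 4, Cyp4a12a, Cyp4a12b and Cyp4b1 were higher in males and, with no other measured gene between them, Cyp4a14 and Cyp4a31 (1.01) were higher in females. In the Slc17 cluster on chromosome 13, Slc17a2, a phosphate and organic anion carrier, was higher in females by 3.69, whereas its neighbours Slc17a3 (-0.52) and Slc17a1 (-0.52) were higher in males. The Akr1c cluster on chromosome 13 held 4 genes higher in females and 2 higher in males of 8. On chromosome 5, Ugt2b34 was higher in females and Ugt2b5, Ugt2b37 and Ugt2b38 were higher in males. Without arrays 2 and 5, Ugt2b35 (-0.70), Ugt2b36 (-1.14) and Ugt2a3 (-1.28) were higher in males too, and Ugt2b5 went from -1.69 to -2.55. The Rdh cluster on chromosome 10, on all arrays, held 6 of 8 genes higher in females and none in males, among them Rdh19 (2.62) and Rdh16f2 (2.06). Rdh7, not called with all arrays (0.68), was higher in males without arrays 2 and 5 (-1.0). The Ces1 cluster on chromosome 8 held 3 of 7 genes higher in males and 0 in females, on all arrays. Probes of such paralogs can cross-hybridise, so the values of single members are uncertain.

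**Figure D3:**
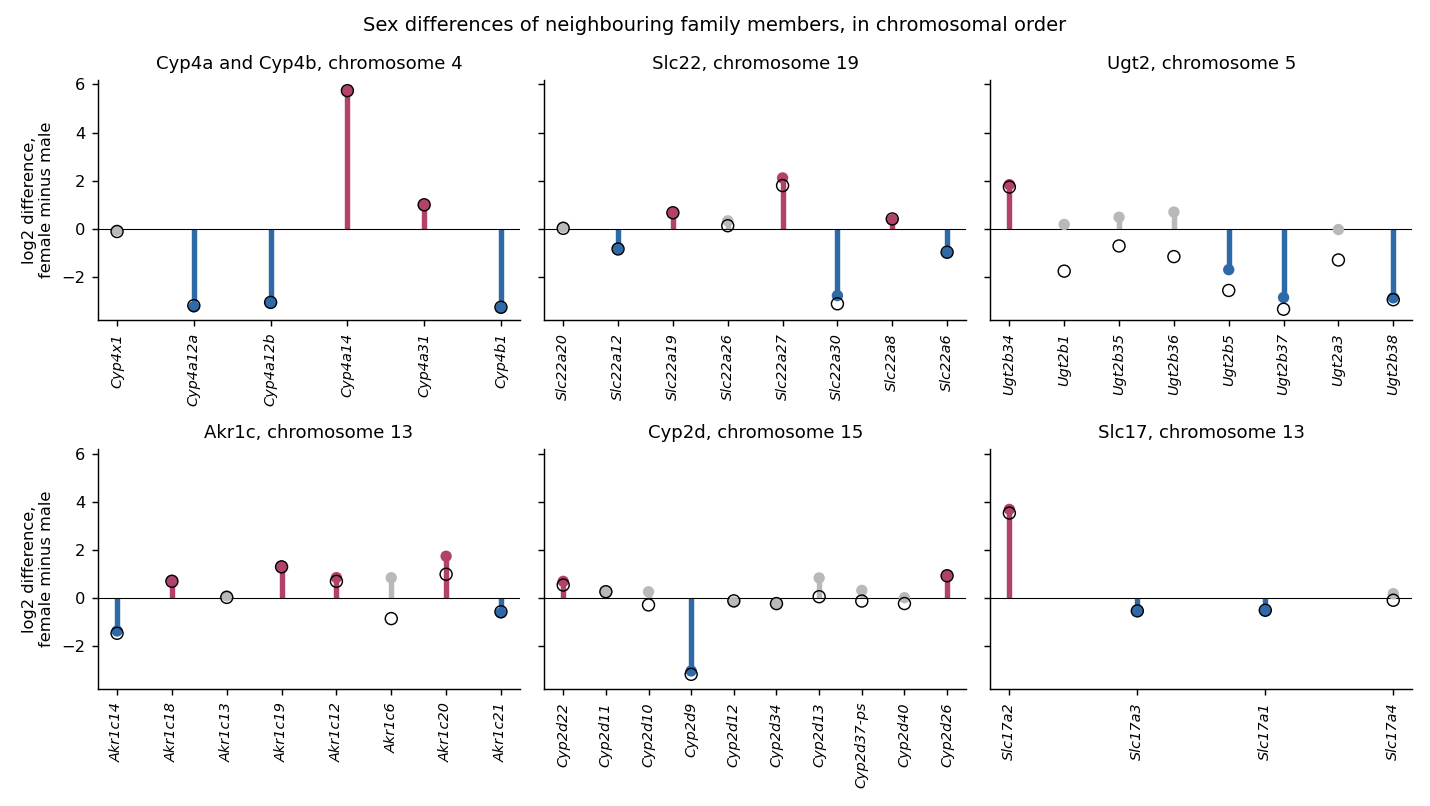
Log2 difference, female minus male, of measured members of 6 gene families in their order along the chromosome, without scale. Filled points are the fit on all 12 BPN/3J arrays (magenta higher in females, blue higher in males, grey not called), and open circles are the fit without female arrays 2 and 5. Open and filled points coincide in the Cyp4 cluster and separate for Ugt2b1, Ugt2b36 and Akr1c6, which the liver also expresses.

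Markers of tubule segments also differed by sex, and some of them, such as Slc7a13, Slc22a13 and Calb1, are genes already named above. The mean of 6 S3 markers was 12.04 to 12.11 in males and 10.85 to 10.98 in females. Its members went both ways, 3 higher in females and 3 in males, with a median of -0.19. Slc7a13, with the largest difference of all called genes, and Atp11a (-1.11) were higher in males and Slc22a13 (1.08) higher in females. Of 13 general proximal tubule markers 4 were higher in females and 3 in males, with a median of -0.04. In several lists of later segments and other cell types, the share of markers higher in females lay above the 16.4% of all genes. Higher in females were 5 of 6 thick ascending limb markers, 5 of 5 distal convoluted tubule markers, 5 of 8 intercalated cell markers, 6 of 6 podocyte markers, 6 of 7 smooth muscle and pericyte markers, 4 of 8 endothelial markers (3 without arrays 2 and 5) and 5 of 7 fibroblast markers, with none higher in males in any of these lists. Principal cell markers of the collecting duct had 2 of 7 higher in females and 1, Aqp3, in males. Nphs1 (nephrin) and Wt1 of the podocyte differed by 0.48 and 0.54, and Slc12a3, the thiazide-sensitive cotransporter, by 0.27. All 6 female means lay above all 6 male means in the thick ascending limb, distal convoluted tubule, intercalated cell and podocyte lists. The same held for the smooth muscle, endothelial and fibroblast lists. The part of cell proportions in the transporter differences was not tested.

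**Figure D4:**
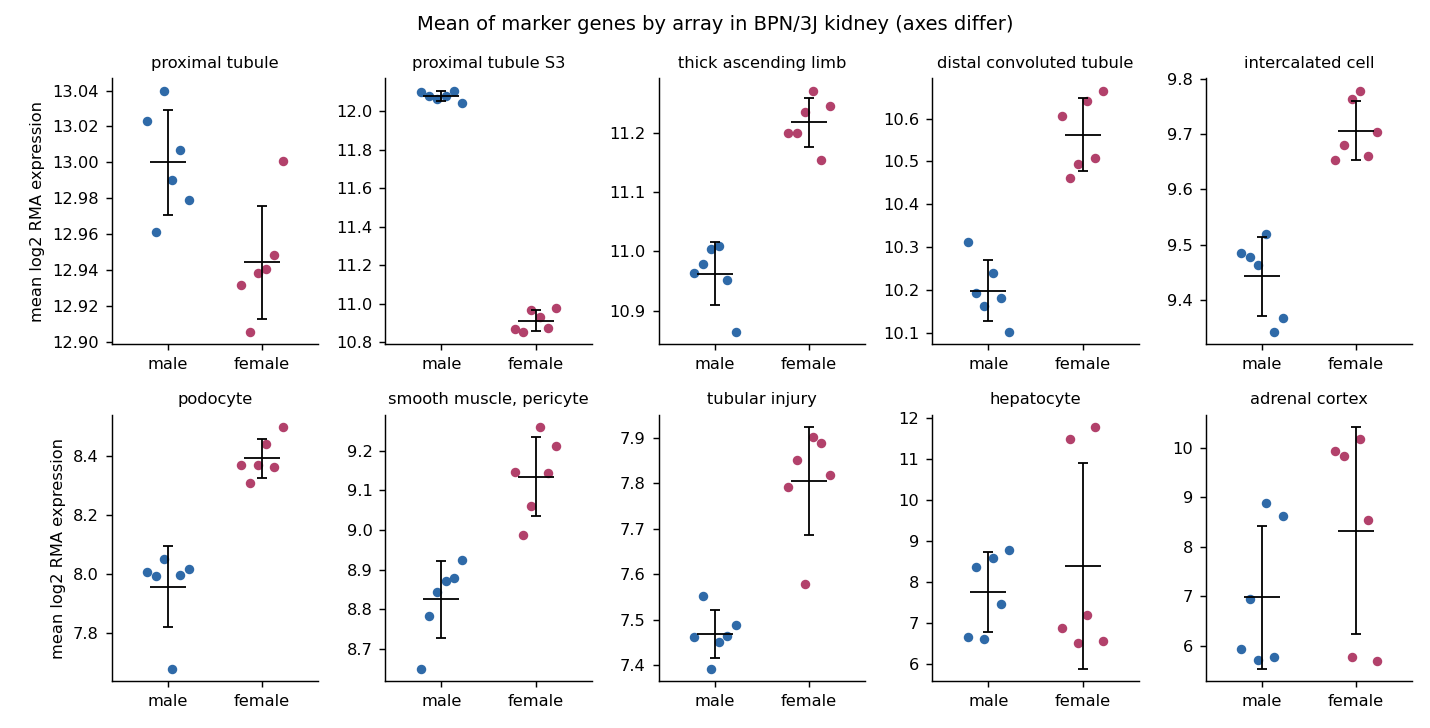
Mean log2 RMA expression of marker genes of 10 cell types or states in each BPN/3J array (blue male, magenta female), with the group mean and SD in black; the vertical axes differ between panels. Females lie above males for the thick ascending limb, distal convoluted tubule, intercalated cell, podocyte, smooth muscle and tubular injury markers. Female arrays 2 and 5 stand apart for hepatocyte markers, and the adrenal cortex markers are spread in both sexes.

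Of 6 tubular injury markers, 2 were higher in females (33.3%, against 16.4% of all genes) and 1 in males (16.7%, against 16.8%). The mean of the 6 lay between 7.58 and 7.90 in females and between 7.39 and 7.55 in males, without overlap. Havcr1 (KIM-1), a receptor raised on injured proximal tubule cells, lay between 11.72 and 12.10 in females (median 11.85) and between 9.95 and 10.29 in males (median 10.06), 3.45-fold apart, with a difference of 1.79 ± 0.08. Vcam1, an adhesion molecule, was also higher in females (0.29) and Krt20, a keratin, higher in males (-0.30). Lcn2, Cd44 and Sox9 were not called, at 0.18, 0.04 and 0.02. Without arrays 2 and 5, 2 of the 6 were higher in females and 0 in males. None of 10 leukocyte markers was called in either direction. Of 8 adipocyte markers 2 were higher in males (Ucp1 and Lep), of 7 adrenal medulla markers 1 (Slc18a1), and of 5 testis and epididymis markers 2 (Defb19 and Tnp1), whereas 1 of 6 ovary and oviduct markers (Ovgp1) was higher in females. Without arrays 2 and 5 the ovary and oviduct list had 0 and the testis and epididymis list 1 called.

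In hypertensive BPH/2J mice 3106 autosomal genes were higher in females (17.2%) and 2839 higher in males (15.8%) by the same test. Of the BPN/3J calls, 2152 of the 2961 higher in females and 2066 of the 3022 higher in males were called in the same direction in BPH/2J, and 34 were called in opposite directions. For the genes over 2-fold the counts were 102 of 106 and 146 of 154. The strain-by-sex interaction, which tests whether the sex difference itself differed, was called for 405 autosomal genes (2.25%). Of these, 269 had the same sign in both strains and 136 opposite signs.

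**Figure D5:**
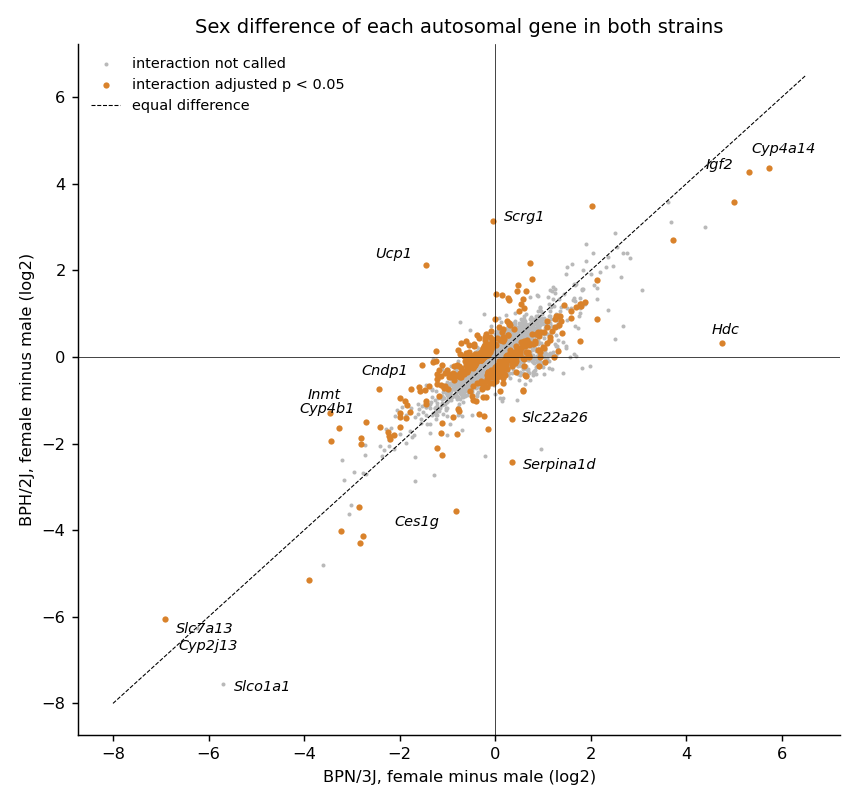
Log2 difference, female minus male, of each of 18025 autosomal genes in BPN/3J (horizontal) and BPH/2J (vertical). Orange points passed the strain-by-sex interaction at an adjusted p under 0.05 and the dashed line marks equal differences. Most large differences lie near the line, and Hdc, Scrg1, Ucp1, Serpina1d and Ces1g lie far from it.

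Hdc had the largest interaction towards females, 4.43 (limma, adjusted p = 1.35e-13). In BPH/2J it lay between 12.24 and 12.48 in females and between 11.88 and 12.33 in males, so it was high in both sexes and differed by 0.32. The BPN/3J males, at 6.17 to 6.75, were thus the 1 group of 4 with a low level. Serpina1d and Ces1g, serine protease inhibitor and carboxylesterase genes that liver expresses strongly, had interactions of 2.78 and 2.75. Ces1g ranged from 5.41 to 7.85 in BPN/3J females and from 7.03 to 7.51 in BPN/3J males, and was not called with all arrays (-0.82). It was called without female arrays 2 and 5 (-1.39, limma adjusted p = 1.88e-05) and with the hepatocyte and adrenal cortex means as covariates (-0.96, limma adjusted p = 0.00525), whereas in BPH/2J it differed by -3.57. Slc22a26 and Cyp2d12, with interactions of 1.76 and 1.51, were higher in males in BPH/2J (-1.42 and -1.67) and were not called in BPN/3J (0.34 and -0.16).

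In the other direction, Ucp1, the uncoupling protein of brown fat, had the largest interaction, -3.58. It lay between 6.34 and 8.49 in BPN/3J males and between 5.22 and 6.35 in BPN/3J females, but between 7.78 and 10.51 in BPH/2J females and between 6.29 and 8.27 in BPH/2J males. The signs were opposite, at -1.45 and 2.13, and the groups of each strain overlapped. The mean of 8 adipocyte markers, Ucp1 among them, lay at 8.69 to 9.68 in BPH/2J females and 8.37 to 8.97 in BPH/2J males, where 5 of the 8 were higher in females. In BPN/3J the mean was 7.74 to 8.65 in females and 7.56 to 8.87 in males. Its part in the Ucp1 values was not tested. Scrg1 was low in both BPN/3J sexes, at 4.89 to 5.25, and in BPH/2J males, and lay between 7.84 and 8.62 in BPH/2J females, an interaction of -3.19. Inmt (-2.17), Cndp1 (-1.68) and Cyp4b1 (-1.64) were higher in males in both strains and more so in BPN/3J. For Cyp4b1 the range of the BPH/2J females, 12.03 to 12.37, overlapped that of the BPN/3J males, 11.95 to 12.17.

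The 13 autosomal genes measured in the study by quantitative PCR, chosen there for differences between the strains, were followed by sex in BPN/3J. Of these, 5 were higher in females and 4 higher in males, Hdc and Cyp4b1 by the amounts above. Kcnk1 lay between 11.06 and 11.31 in females (median 11.16) and between 10.41 and 10.60 in males (median 10.43), and Il10rb, a cytokine receptor chain, differed by 0.53, Serpinb8 by 0.32 and Pak6 by 0.16. Angptl7, an angiopoietin-like protein, was between 8.17 and 9.05 in males (median 8.75) and between 6.85 and 7.35 in females (median 7.19), 2.96-fold apart. Cndp2, the cytosolic dipeptidase, differed by -0.89 and Vwa1 by -0.45. The endothelin Edn3 (0.13), Dna2 (0.05), Mcm6 (0.18) and Pld1 (0.17) were not called, with adjusted p-values of 0.269, 0.548, 0.0522 and 0.0543. The 95% intervals of these 4 differences lay between -0.07 and 0.33. These are array values only. The study also compared the sexes by quantitative PCR on the same RNA, and there reported Edn3 as higher in females of both strains. Pak6, called here, was reported there as higher in females of the hypertensive strain only. The fold changes listed there for Hdc and Cyp4b1 in the normotensive strain had the same directions as here and were larger. The study's text reports no sex difference for Mcm6 or Dna2, and for Pld1 a difference in the hypertensive strain only. Its listed fold changes of Mcm6 and Pld1 in the normotensive strain were nevertheless towards females and passed the study's own significance threshold of 0.05.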

How the data were processed

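Total RNA of whole kidneys from 24 mice, 6 in each of 4 groups, was hybridised to Affymetrix Mouse Gene ST arrays. The deposited values are log2 expression, computed by the authors with RMA (robust multiarray analysis), for which no software version is given in the sources used here. Medians of the BPN/3J arrays ran from 6.89 to 6.97. The study extracted RNA from frozen tissue and required an RNA integrity number above a set limit. Strain, sex and replicate number came from the labels. Deposited values were used with no further normalisation, offset or filter, and arrays carry no read depth, so their number limits the precision.

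Of 28853 probe sets, 73.3% carried exactly 1 symbol in the platform annotation, 1881 several and 5813 none. Symbols were assigned to chromosomes by a RefSeq gene table of GRCm38.p6. The 21159 probe sets with 1 symbol gave 18025 autosomal genes, 715 on X, 15 on Y and 27 with no chromosome. The brightest probe set, by its mean over the 24 arrays, stood for each of 1322 autosomal genes with several.

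Females were compared with males within each strain on 12 arrays, and the strain-by-sex interaction on all 24, by limma (version 3.58.1, R 4.3.3) two-sided, with p-values of all probe sets adjusted by Benjamini-Hochberg and a threshold of 0.05. Differences are female minus male with SE. The fit was tested on simulated data. Alternatives were another scaling, a filter on dim probe sets, Bonferroni, a fold limit, other variance settings, a replicate block, left-out arrays, covariates and the methods' t-test. No per-sample column was left unmapped (0), and X, Y and multi-symbol probe sets were left out of gene counts. Lists were described by counts and medians only. Named genes were the 15 largest differences per direction among called genes whose groups did not overlap, the 3 largest called members per direction of each of 29 lists, the 5 largest interactions per direction, the receptors Esr1, Prlr and Ghr, the quantitative PCR genes, and up to 3 members of each of 18 cell lists. A further receptor in that rule is not reported here. Other genes, and the neighbouring families, were chosen after their values were seen. Members and lists were chosen with earlier results of these data known. Figures were drawn with matplotlib 3.10.9.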

Additional observations from a re-analysis of the deposited data

Results flagged for a closer look

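Among 184 named genes, 368 groups of 6 BPN/3J arrays were examined for an array far from the other 5, and 19 held one. Chance gives such an array in about 1 in 20 groups. The log2 value of that array and of its nearest neighbour in the group were Acox2 in male array 4 (9.363 against 9.504), Atp13a4 in female array 2 (7.463 against 7.754), Cd36 in female array 3 (11.506 against 11.678), Ces1f in male array 3 (13.041 against 12.977), Ces2g in male array 3 (7.854 against 7.471), Cyp2d12 in female array 3 (8.789 against 8.489), Dna2 in female array 5 (7.122 against 7.327), Fgfr4 in male array 1 (9.811 against 9.886) and Ggt6 in female array 1 (8.271 against 8.384). The same held for Hmox1 in male array 2 (8.956 against 9.39), Hsd17b11 in male array 1 (13.239 against 13.306), Igf2r in male array 6 (10.694 against 10.582), Igfbp4 in male array 4 (12.305 against 12.182), Ndufv1 in female array 5 (11.723 against 11.807), Pak6 in male array 2 (7.775 against 7.917), Pklr in male array 6 (8.793 against 8.971), Rxrg in male array 3 (5.855 against 6.096), Slc1a4 in female array 6 (8.731 against 8.477) and Usp2 in male array 5 (10.196 against 10.29). No array accounted for more than 3 of the 19, and most of these gaps were below 0.4.

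The sex difference differed between BPN/3J and BPH/2J for 47 of the 184 named genes by the strain-by-sex interaction (limma on 24 arrays, adjusted p under 0.05), with adjusted p-values from 8.32e-14 to 0.0402. Without BPN/3J female arrays 2 and 5, the interactions of Acot3, Angptl7, Ggt6, Kcnma1, Nat8, Slc6a9, Slco1a6 and Ugt2b38, 8 of the 47, were no longer called. The values below are the BPN/3J difference minus the BPH/2J difference on the log2 scale, each female minus male. With the same sign in both strains, the BPN/3J difference was further towards females for Hdc (4.43), Ces1g (2.75), Cyp2d12 (1.51), Ugt2b37 (1.45), Slc7a12 (1.42), Cyp4a14 (1.37), Slc22a30 (1.36), Cyp7b1 (1.27), Acox2 (1.18), Igf2 (1.05), Kynu (1.02), Cyp4a12a (0.79), Ugt2b38 (0.61), Idi1 (0.61), Igfals (0.58), Slc5a6 (0.57), Acot3 (0.55), Mme (0.55), Cndp2 (0.50), Ggt6 (0.44), Slc6a9 (0.44), Slc22a13 (0.39), Kcnk1 (0.38), Slc22a19 (0.28) and Slc15a2 (0.25). It was further towards males for Inmt (-2.17), Cndp1 (-1.68), Cyp4b1 (-1.64), Tc2n (-1.49), Mas1 (-0.91), Slc7a13 (-0.86), Angptl7 (-0.77), Fkbp5 (-0.52), Kcnma1 (-0.52), Nat8 (-0.47), Hsd17b11 (-0.35), Ces1e (-0.34), Slco1a6 (-0.29) and Nt5e (-0.28). With opposite signs in the strains, it was towards females for Serpina1d (2.78), Slc22a26 (1.76) and Cyp51 (0.38) and towards males for Ucp1 (-3.58), Scrg1 (-3.19), Pparg (-1.03), Hk2 (-0.97) and Vwa1 (-0.69). A gene called in one strain and not in the other is counted by sign here, whatever its own call.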

How the results depend on the processing

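No called sex difference or interaction of a named gene changed sign under any alternative that was run. Under the Bonferroni threshold of the study's methods, 566 probe sets were higher in females and 801 in males, or 450 and 643 autosomal genes, with interactions in 104 probe sets and 83 genes. A 1.5-fold difference in addition left 441 and 573 probe sets, 332 and 403 autosomal genes, and interactions in 170 and 126. The methods' t-test with Bonferroni gave 307 and 526 probe sets, 252 and 428 genes, and with Benjamini-Hochberg 3841 and 3996 probe sets, 2786 and 2887 genes. The Bonferroni and fold settings are stricter by construction. Leaving out 1 array at a time gave 3676 to 4068 probe sets and 2660 to 2894 genes higher in females, 3761 to 4269 and 2692 to 2966 higher in males, and interactions in 424 to 534 probe sets and 333 to 425 genes. Without female arrays 2 and 5 the counts were 2827, 2414 and 325, of which 2633 and 2317 were genes also called with all arrays. Of the named genes, Abcg3, Anpep, Aqp3, Bcl6, Cldn10, Klf9, Shbg and Slco1a6 lost their call there, and Ces1g and Pld1 gained one. Scaling mattered for the balance of directions, since 49.3% of called probe sets were higher in females as deposited, 36.1% with arrays shifted to a common median (2300 and 3787 genes) and 49.5% after quantile normalisation. Of the list counts, 23 moved beyond 1.5 times and 397 did not. Small list medians near 0 changed sign with the left-out arrays or the scaling, and the cause was not tested. The values did not settle whether replicate numbers pair the samples. The deviations of same-numbered arrays correlated at -0.345 to 0.444, and for 2 of the 6 numbers the best partner had the same number. Liver and adrenal transcripts also add to these deviations. With the replicate number as a block, 3901 and 4011 probe sets, 2766 and 2807 genes and 379 interactions were called. The probe sets of Klf9, Cldn10, Nnt, Bhmt, Acox3 and Slc16a9 disagreed in size or call. For Bhmt the brighter probe set gave 2.75 and the dimmer 1.16, both called. The number of arrays, 6 per group, limits what small differences could be detected.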

Other observations

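Immunoglobulin genes, which plasma cells express, were lower in BPN/3J females. Of 19 measured immunoglobulin genes with Jchain, 14 were higher in males and 0 in females by limma at an adjusted p under 0.05, with a median difference of -0.995 (log2, female minus male). This and the families below were chosen after their values were seen, so they carry no test as families. Igkc, the kappa light chain constant region, lay between 8.34 and 8.93 in males (median 8.54) and between 6.01 and 7.71 in females (median 6.51). Jchain, which joins polymeric antibodies, was between 7.95 and 9.23 in males (median 8.85) and between 6.08 and 7.60 in females (median 6.59). Neither pair of groups overlapped. Ccl28, a chemokine that draws antibody-secreting cells to epithelia, was also higher in males (-2.05), as was Fcamr, a receptor for IgA and IgM (-2.13). In BPH/2J the median of the 19 genes was -0.35, with 9 higher in males, and none of the 19 had a called interaction.

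Interferon-inducible genes went the other way in part. Of 56 genes of the Gbp, Ifi, Ifit, Oas, Irgm and Irf families, 20 were higher in females and 3 in males, led by Gbp3, a guanylate-binding protein, at 2.55, and followed by Ifit1 (0.59) and Ifitm1 (0.57). Of 65 heat shock and DnaJ chaperones, 26 were higher in males and 5 in females, all by less than 2-fold, with Dnaja4 (-0.94) and the endoplasmic reticulum chaperone Hspa5 (-0.33) in males and Hspb8 (0.71) in females. Fatty acid elongases Elovl2 (1.69) and Elovl6 (1.67) were higher in females, and Degs2, a sphingolipid desaturase, was higher in males (-2.21). Beside these counts, 16.4% of all autosomal genes were higher in females and 16.8% in males.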
